A study of Mus musculus with 2 samples.

Results

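The genes described here are the nuclear genes of oxidative phosphorylation, the respiratory chain and ATP synthase of the mitochondrial inner membrane. They were chosen by name: every gene probe on both arrays whose symbol began with Ndufa, Ndufb, Ndufc, Ndufs, Ndufv, Uqcr, Cox4, Cox5, Cox6, Cox7, Cox8 or Atp5, or was Sdha, Sdhb, Sdhc, Sdhd or Cycs. This gave 120 probes of 84 genes, out of 41174 gene probes and 21337 named genes in all. By complex, 37 genes belonged to complex I, 4 to complex II, 7 to complex III, 18 to complex IV and 16 to complex V, and the remaining pair were Cycs, which encodes cytochrome c, and Cox4nb. The older symbol Cox4nb stands for Emc8, a subunit of the endoplasmic reticulum membrane complex that shares only the letters of its name with cytochrome c oxidase. Ndufaf1, Ndufa12l (now Ndufaf2) and Atp5s (now Dmac2l) are assembly proteins rather than subunits, and Ndufa4, named as a complex I subunit, is placed here in complex IV, where it is now known to reside. The rule used no measured value.

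Total RNA of mouse keratinocytes, the epithelial cells of the epidermis, was hybridised to 2 two-colour Agilent arrays. On each, wild-type keratinocytes were labelled with Cy3, and keratinocytes in which, per the labels, Chuk had been deleted (CHUK-LoxP mutant) were labelled with Cy5. Chuk encodes IKK alpha, a kinase of the NF-kappa B pathway that keratinocytes need to differentiate. The labels name neither the Cre driver nor the age or strain of the animals. They also do not say whether the 2 arrays used separate cultures. The p-values therefore reflect only spread between the 2 arrays, in large part pooled over all probes, and this spread may be technical. The dyes were not swapped, and dye and genotype cannot be told apart.

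Oxidative phosphorylation passes electrons from NADH (complex I) or succinate (complex II) through coenzyme Q, complex III and cytochrome c to oxygen at complex IV, and complex V makes ATP from the proton gradient that results. Complexes I, III, IV and V mix a few subunits encoded in mitochondrial DNA with many encoded in the nucleus, while complex II is nuclear throughout. A subunit is either catalytic, carrying a flavin, haem, iron-sulfur cluster or nucleotide site, or accessory, needed for assembly and stability. The subunits encoded in mitochondrial DNA were not analysed here. In skin, keratinocytes are known to lean on glycolysis, with mitochondrial respiration and its oxygen radicals taking part in differentiation.

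Values are log2 ratios of Cy5 over Cy3, so a positive value means more signal in the channel labelled Chuk-deleted, and "higher" and "lower" refer to that channel throughout. A gene was called when the limma test of its mean ratio against 0 gave a Benjamini-Hochberg adjusted p under 0.05 over all probes tested. Chuk itself gave more signal in the channel labelled Chuk-deleted by both its probes, at 0.74 ± 0.02 and 0.85 ± 0.11 (SD, n = 2, limma adjusted p = 0.000104 and 0.000105). This goes against the label unless both probes lie outside the deleted part, which the sources used here do not say, so every direction rests on the dye labels alone. Median spot intensities were 95.2 to 109.9 in Cy3 and 171.5 to 218 in Cy5, and 53.2% to 64.5% of gene spots were well above background. Counts of marker genes, here and below, stand beside 33.0% called higher and 28.3% called lower of all genes tested. Of marker lists for other cells, 8 of 10 fibroblast genes were called higher and 1 lower (summed processed intensity of the list 104848 to 138293 in Cy3 and 188227 to 218007 in Cy5). All 7 melanocyte genes were called lower (46448 to 51352 in Cy3 and 16631 to 21743 in Cy5). Of the keratinocyte markers, 6 of 10 were called higher and 4 lower, and all 10 were well above background. Of 7 macrophage and Langerhans cell markers, 5 were tested, of which 0 were called higher and 4 lower. In bulk RNA, fewer cells of a type and less RNA per cell cannot be told apart, and the part of other cells in the values below was not tested.

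Of the 84 genes, 81 were tested. The other 3, Cox4i2, Cox8b and Cox8c, are isoforms restricted to particular tissues, and none was well above background in either channel on either array. Across the 81, 28 genes were called higher and 13 lower, against 33.0% higher and 28.3% lower of all 13758 genes tested. Called genes thus made up 50.6% of the members and 61.2% of all genes. No member reached a 2-fold difference on both arrays, with one sign, as 4.70% of all genes did. The median ratio of the members was 0.07 (0.05 on array 1 and 0.10 on array 2), beside 0.02 for all genes tested.

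Single changes were small. The members ran from -0.77 (Cox7c) to 0.62 (Cox6b2), and 77 of 81 (95.1%) stayed within 0.5 of 0 on the log2 scale, beside 81.0% of all genes. The median size of a change, whatever its direction, was 0.15 in the members and 0.21 in all genes. The members were bright: 65 of 81 (80.2%) fell in the brightest 25% of all genes tested. Among genes of that brightness 82.6% stayed within 0.5 and the median size was 0.20. The 4 members beyond 0.5 all belonged to complex IV. On both arrays 65 of the 81 genes had the same sign, and Pearson's r between the arrays across members was 0.90 (Spearman's rho 0.84, n = 81 genes, which share both arrays' normalisation and are not independent replicates).

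**Figure D1:**
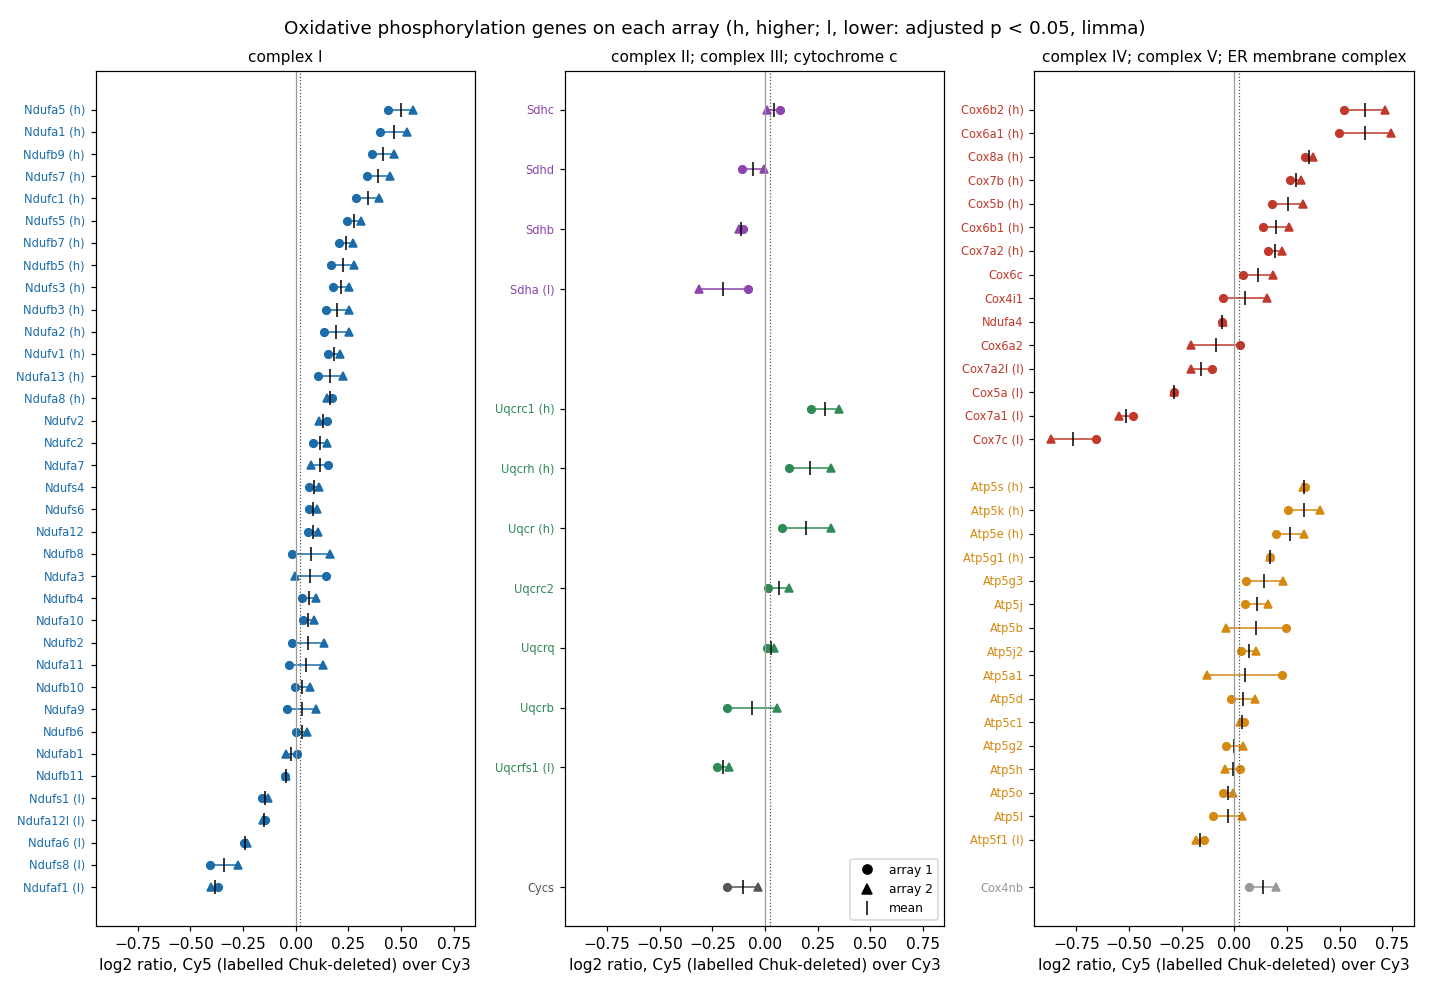
Rows are tested member genes, grouped by complex, with 1 member left out, and the horizontal axis is the log2 ratio of the Cy5 channel, labelled Chuk-deleted, over Cy3. Circles are array 1, triangles array 2 and ticks the mean. The letters h and l mark genes called higher or lower, and the dotted line is the median of all genes tested (0.02). Most members lie between -0.5 and 0.5, complex IV reaches farthest on both sides, and these are directions under loess centring: spike-in centring turns every rise, and median centring turns the named falls except those of Cox7c and Cox7a1.

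**Figure D2:**
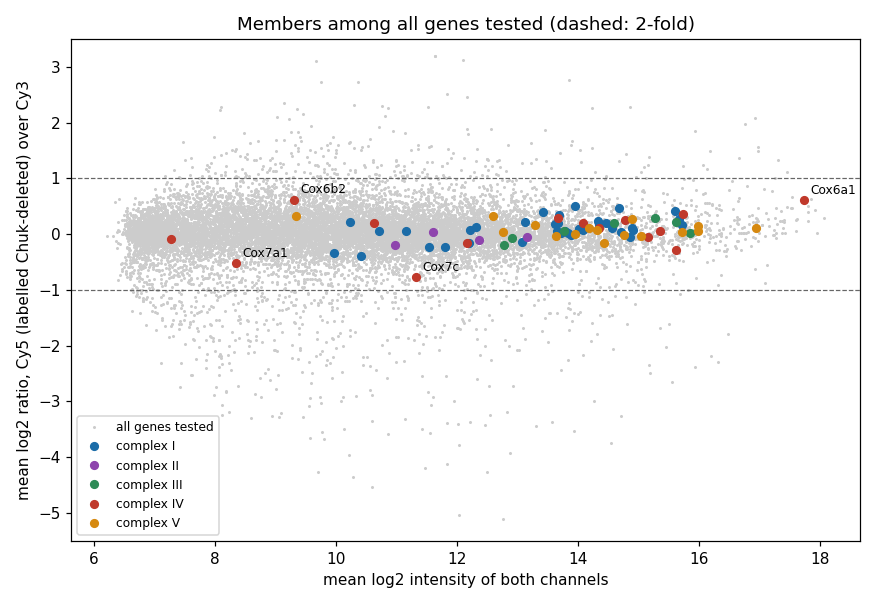
Grey points are all 13758 genes tested, with mean log2 intensity of both channels across and mean log2 ratio of Cy5 over Cy3 upward. Coloured points are the members of complexes I to V, and dashed lines mark a 2-fold difference. Most members sit at high intensity, and all lie inside the dashed lines. Cox6a1 and Cox6b2 are at the top and Cox7c and Cox7a1 at the bottom, and of these Cox6b2 and Cox7a1 are dim.

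The zero of these ratios depends on how the arrays are centred, and this bears on every direction given here. Centring each array on the median of all gene probes in place of loess raised the median of all genes from 0.02 to 0.55 and that of the members from 0.07 to 0.85. Lowering the loess ratios by the mean of the spike-in controls brought the median of all genes to -0.74 and that of the members to -0.70. Relative to all genes, the members' median stood 0.05 above under loess with any of 3 background treatments and under the software's own log ratio, and 0.30 above when loess was left out. Loess removes trends with brightness, and the members are brighter than most genes. Differences between members of similar brightness on the same array are least touched by this choice. In 5 centred settings (normexp, subtracted or uncorrected background with loess, the software's ratio, and the median of tested probes without loess), 14 members were called higher every time and 4 lower every time, while the other 63 were not called the same way in all 5. When median centring on all probes and spike-in centring were added, no called member kept its call in all 7.

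**Figure D3:**
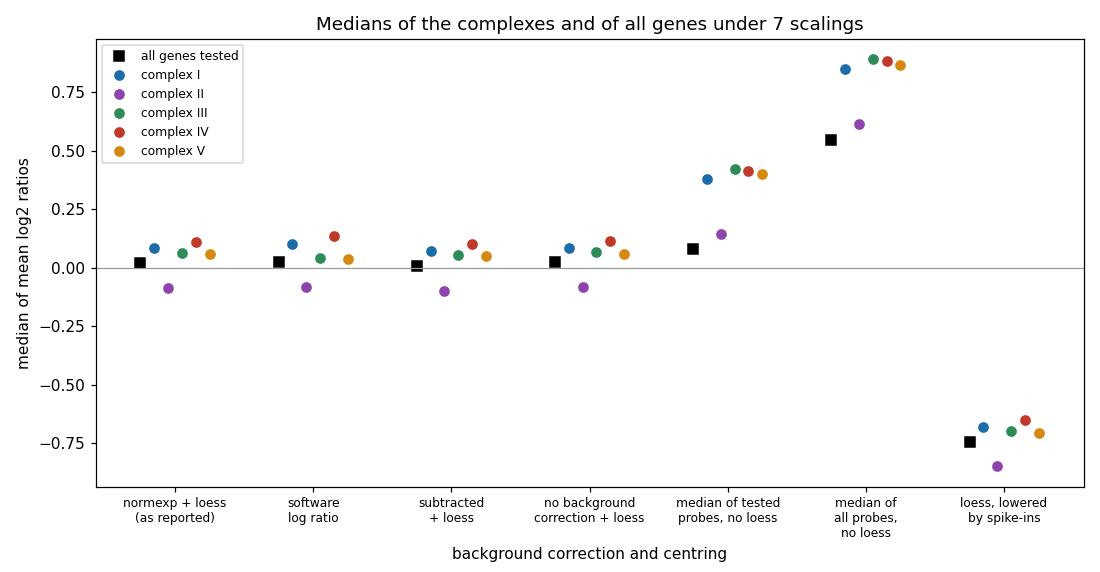
The vertical axis is the median of mean log2 ratios (Cy5 over Cy3), and the horizontal axis lists 7 combinations of background correction and centring. Squares are all genes tested and circles are complexes I to V. The median of all genes runs from -0.74 to 0.55, the members stand 0.05 above it with loess and 0.30 above without, complexes I, III, IV and V stay above the square in each setting, and complex II stays below it in each setting with loess, at -0.09 against 0.02 as reported.

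Counts for each complex and its parts, here and below, stand beside 33.0% called higher and 28.3% called lower of all genes tested, and no complex was tested as a set. Complex I, the NADH dehydrogenase, had 37 genes tested, of which 14 were called higher and 6 lower, with a median of 0.08. It divides into 7 core subunits encoded in the nucleus, which hold the flavin and the iron-sulfur clusters, and 28 accessory subunits, beside the 2 assembly factors. The core split evenly, 3 higher and 3 lower. Of the accessory subunits 11 were called higher and 1 lower, with a median of 0.08. Both assembly factors were called lower.

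Among the accessory subunits Ndufa5, which sits in the arm facing the matrix, was farthest up, at 0.44 on array 1 and 0.56 on array 2 (mean 0.50 ± 0.09, SD, n = 2, limma adjusted p = 0.000593). On array 1 its processed intensity was 13625 (Cy3) against 18959 (Cy5), and on array 2 it was 14779 against 22086. Both arrays thus gave more signal in Cy5, by 1.41-fold on average. Ndufa1, a small membrane subunit encoded on the X chromosome, was at 0.40 and 0.53 (mean 0.47 ± 0.09, limma adjusted p = 0.000792), and its other probe gave 0.46. Ndufb9, of the membrane arm, was at 0.36 and 0.47 (mean 0.41 ± 0.08, limma adjusted p = 0.00111). Ndufc1, also of the membrane arm, was at 0.29 and 0.40 (mean 0.34 ± 0.08, limma adjusted p = 0.00249). All 4 had the smaller value on array 1 and the same direction on both. The single accessory subunit called lower was Ndufa6, at -0.25 and -0.23 (mean -0.24 ± 0.01, limma adjusted p = 0.00751).

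In the core, neighbouring subunits had opposite signs under loess centring. Ndufs7 and Ndufs8 both carry iron-sulfur clusters on the path to coenzyme Q. Ndufs7 was at 0.34 and 0.45 (mean 0.39 ± 0.08, limma adjusted p = 0.00141), while Ndufs8 was at -0.41 and -0.27 (mean -0.34 ± 0.09, limma adjusted p = 0.00295). The ranges of the 2 genes did not overlap. Ndufs1, of the electron input module, was called lower at -0.15 and Ndufv1, the flavin subunit, higher at 0.18. Ndufs3, which joins the same arm, was called higher at 0.22.

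Of the assembly factors Ndufaf1, a chaperone for the membrane arm, was at -0.37 and -0.40 (mean -0.39 ± 0.03, limma adjusted p = 0.0011). Ndufa12l was at -0.15 on both arrays (limma adjusted p = 0.0419). Ndufab1, the mitochondrial acyl carrier protein and also a complex I subunit, was the only member whose probes were called in opposite directions. Its brightest probe gave -0.02 and was not called, a dimmer one gave -0.17 and was called lower, and the dimmest tested one gave 0.23 and was called higher. The value of Ndufab1 is therefore uncertain, also because RefSeq holds a pseudogene of its name. Ndufs5, at 0.28, shares that limit.

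Promoters of a high and a low subunit of complexes I and IV are printed to show what sequence lies at their starts. Each runs from 250 bases before to 50 bases after the start of the gene, 5′ to 3′ on the strand of the gene, from RefSeq on GRCm38.p6, and 69 of the 84 genes had one. Capitals mark matches on either strand to 4 motifs tied to respiratory genes: GCGCANGCG (nuclear respiratory factor 1), CCGGAAG (ETS factors such as GABP), AAGATGG (YY1) and GGGCGG (Sp1). Ndufa5 has 2 annotated starts with overlapping windows, of which 1 is shown. In complex I these are Ndufa5 (chr6:24527477-24527776, minus strand), the farthest up, and Ndufs8 (chr19:3912725-3913024, minus strand), the farthest down of the subunits.
Ndufa5: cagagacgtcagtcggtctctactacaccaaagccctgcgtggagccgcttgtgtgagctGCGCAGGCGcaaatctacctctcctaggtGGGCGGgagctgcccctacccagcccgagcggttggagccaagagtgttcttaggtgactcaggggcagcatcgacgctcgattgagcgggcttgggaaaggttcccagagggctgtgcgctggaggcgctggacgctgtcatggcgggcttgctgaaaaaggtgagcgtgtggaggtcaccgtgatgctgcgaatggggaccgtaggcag
Ndufs8: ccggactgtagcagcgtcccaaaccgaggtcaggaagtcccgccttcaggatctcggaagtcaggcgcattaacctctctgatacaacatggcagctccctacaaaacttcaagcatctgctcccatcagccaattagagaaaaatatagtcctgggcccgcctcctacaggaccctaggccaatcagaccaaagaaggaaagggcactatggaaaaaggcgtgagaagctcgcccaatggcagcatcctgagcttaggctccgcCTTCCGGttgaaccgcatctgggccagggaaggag

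Within that window, Ndufa5 holds a nuclear respiratory factor 1 match and an Sp1 match, and Ndufs8 holds an ETS match alone. Over the 69 members with a promoter, 21 (30.4%) held the nuclear respiratory factor 1 motif, against 7.03% of the 27025 genes in the table. For the ETS motif it was 17 members (24.6%) against 9.93%, for the YY1 motif 11 (15.9%) against 7.28%, and for the Sp1 motif 30 (43.5%) against 38.2%. By complex, the nuclear respiratory factor 1 motif stood in 8 of 33 promoters of complex I, 2 of 3 of complex II, 2 of 4 of complex III, 1 of 13 of complex IV and 7 of 15 of complex V. By call, it stood in 7 of 26 members called higher, 2 of 11 called lower and 12 of 31 not called. These are letter matches and say nothing of binding.

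Complex II, the succinate dehydrogenase that belongs to both the respiratory chain and the citric acid cycle, was the only complex with a median below 0 on both arrays, at -0.09. It stayed below the median of all genes with loess, while median centring turned its sign. All 4 genes were tested, 0 were called higher and 1 lower. Sdha, the flavin subunit, was at -0.08 and -0.32 (mean -0.20 ± 0.17, limma adjusted p = 0.0474). Its other, dimmer probe gave 0.08 and was not called, so the call of Sdha rests on 1 of 2 probes and mostly on array 2. Sdhb, the iron-sulfur subunit, was at -0.11 and -0.12 without passing the test (mean -0.11 ± 0.01, limma adjusted p = 0.096). The membrane anchors did not pass either, with Sdhd at -0.11 and -0.0045 (mean -0.06) and Sdhc at 0.07 and 0.0080 (mean 0.04).

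Complex III, the cytochrome bc1 complex, had 3 of 7 genes called higher and 1 lower, with a median of 0.06 (0.01 and 0.11 on the arrays). Uqcrc1, a core protein without a redox centre, was at 0.22 and 0.35 (mean 0.29 ± 0.10, limma adjusted p = 0.00605), and its other probe gave 0.25. Uqcrh, the hinge protein next to cytochrome c1, was at 0.11 and 0.31 (mean 0.21 ± 0.14, limma adjusted p = 0.0288). Uqcr, the small subunit now named Uqcr11, was at 0.08 and 0.31 (mean 0.20 ± 0.16, limma adjusted p = 0.0469). All 3 had the larger value on array 2. The catalytic member of the list was the one called lower: Uqcrfs1, the Rieske iron-sulfur protein, was at -0.23 and -0.17 (mean -0.20 ± 0.04, limma adjusted p = 0.0173). Cyc1, which encodes the catalytic cytochrome c1 and falls outside the naming rule, was not called (mean 0.06 ± 0.09, limma adjusted p = 0.409). Uqcrc2, Uqcrq and Uqcrb did not pass the test, with means of 0.06, 0.03 and -0.06. A second, much dimmer probe of Uqcrq gave 0.59 and was called higher, 0.56 from the bright one. Cycs, which carries electrons from complex III to complex IV, was at -0.18 and -0.03 by its brightest probe (mean -0.11 ± 0.10, limma adjusted p = 0.165). Its dimmer probes gave -0.19 and -0.17 and were both called lower, and RefSeq holds pseudogenes of its name.

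Complex IV, the cytochrome c oxidase, was the most spread of the 5. Of its 15 tested genes 7 were called higher and 4 lower, and the distance from its lowest to its highest member was 1.38 on the log2 scale, beside 0.88 in complex I, 0.24 in complex II, 0.48 in complex III and 0.49 in complex V. A constant shift of an array leaves that distance unchanged, and it ran from 1.38 to 1.71 over all alternatives that recomputed it. Its ends, Cox7c and either Cox6b2 or Cox6a1, differ in brightness, so loess bears on it. The catalytic core of the enzyme is encoded in mitochondrial DNA, so all of these genes encode structural and regulatory subunits. Of 11 subunits that are found in most tissues, 6 were called higher and 2 lower, with a median of 0.19.

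Cox7c, a small subunit that spans the membrane, was the lowest of all members. On array 1 its processed intensity was 3269 (Cy3) against 2066 (Cy5), and on array 2 it was 3855 against 2066, so that Cy3 was brighter each time. The ratios were -0.66 and -0.87 (mean -0.77 ± 0.15, limma adjusted p = 0.000217), a 1.70-fold lower level. Without loess it remained the lowest member of complex IV, at -0.13 under median centring, where it did not pass the test. A single probe stood for Cox7c, and RefSeq holds pseudogenes of its name whose transcripts such a probe could share. Cox5a, which is bound to the matrix side and is a site of regulation, was called lower at -0.29 on both arrays (mean -0.29 ± 0.00145, limma adjusted p = 0.00352).

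Cox6a1, the widely found isoform of subunit VIa, was the highest of the subunits found in most tissues, at the same rounded mean as the testis isoform Cox6b2. On array 1 its processed intensity was 176418 (Cy3) against 223340 (Cy5), and on array 2 it was 168075 against 266139. The ratios were 0.49 and 0.74 (mean 0.62 ± 0.17, limma adjusted p = 0.00062), or 1.53-fold higher, and no spot was saturated. The ratio of Cox6a1 exceeded that of Cox7c by 1.15 on array 1 and 1.61 on array 2 (mean 1.38 ± 0.32), and by 1.28 to 1.71 under the alternatives of background, centring and filter, the larger value coming without loess. These 2 genes are not of similar brightness (mean log2 intensity 17.7 and 11.3), so loess bears on their difference. Cox8a, a further membrane subunit, was at 0.33 and 0.37 (mean 0.35 ± 0.03, limma adjusted p = 0.0016). Cox7b, another membrane subunit, was at 0.26 and 0.32 (mean 0.29 ± 0.04, limma adjusted p = 0.00369). Cox5b, which binds zinc on the matrix side, was at 0.18 and 0.33 (mean 0.25 ± 0.11, limma adjusted p = 0.0111). Cox6c (0.11), Cox4i1 (0.05) and Ndufa4 (-0.06) did not pass the test.

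Several subunits of complex IV come as paired isoforms, one found widely and one in heart, skeletal muscle, lung or testis. In the Cox7a pair the isoforms differed in direction. Cox7a1, the heart and muscle isoform, was at -0.48 and -0.55 (mean -0.52 ± 0.05, limma adjusted p = 0.000385), while Cox7a2, the isoform of most tissues, was at 0.16 and 0.23 (mean 0.19 ± 0.05, limma adjusted p = 0.02). The 2 ranges lay on opposite sides of 0. Cox7a1 rests on 1 dim probe, with a processed intensity of 173 to 379, against 16613 to 22632 for Cox7a2. The pair is thus not of similar brightness. Cox7a2l, a relative that joins complexes III and IV into supercomplexes, was called lower at -0.16. In the Cox6b pair both isoforms were called higher: Cox6b2, the testis isoform, at 0.52 and 0.72 (mean 0.62 ± 0.14, limma adjusted p = 0.000416) and Cox6b1 at 0.14 and 0.26 (mean 0.20 ± 0.08, limma adjusted p = 0.0234). Cox6b2 was dim too, at a processed intensity of 462 to 866. In the Cox6a pair Cox6a2, the muscle isoform, was at 0.03 and -0.20 and did not pass the test. Its processed intensity was only 69.8 to 92.8. Cox4i2 and the Cox8 isoforms Cox8b and Cox8c gave only a bound, as they were not well above background. Of 7 striated muscle markers Ckm, Myh4, Myoz1 and Tnnt3 were not tested for the same reason, and of the 3 tested 1 was called higher and 1 lower.

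The promoters of the highest and the lowest of the complex IV subunits found in most tissues, Cox6a1 (chr5:115348909-115349208, minus strand) and Cox7c (chr13:86046746-86047045, minus strand), are shown with the same capitals and from the same source.
Cox6a1: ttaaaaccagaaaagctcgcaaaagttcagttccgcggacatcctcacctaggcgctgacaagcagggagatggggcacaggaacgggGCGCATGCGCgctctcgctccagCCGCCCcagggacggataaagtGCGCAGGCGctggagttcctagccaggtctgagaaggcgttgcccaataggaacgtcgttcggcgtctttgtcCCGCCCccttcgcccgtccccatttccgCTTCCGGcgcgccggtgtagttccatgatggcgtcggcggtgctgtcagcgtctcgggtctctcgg
Cox7c: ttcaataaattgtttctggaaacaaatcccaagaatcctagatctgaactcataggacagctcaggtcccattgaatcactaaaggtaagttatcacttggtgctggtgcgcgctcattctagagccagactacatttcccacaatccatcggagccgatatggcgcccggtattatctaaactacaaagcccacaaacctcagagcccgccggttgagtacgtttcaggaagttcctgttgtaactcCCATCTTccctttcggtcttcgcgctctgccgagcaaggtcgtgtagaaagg

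The window of Cox6a1 holds nuclear respiratory factor 1 matches, a pair of which overlap on opposite strands in one run, beside Sp1 and ETS matches. That of Cox7c holds a single YY1 match close to the start of the gene. Cox6a1 was thus the 1 gene of 13 in complex IV with the nuclear respiratory factor 1 motif. The share of G and C was 63.0% in the window of Cox6a1 and 48.0% in that of Cox7c. In complex I it was 62.3% for the Ndufa5 window shown and 55.0% for Ndufs8. The window at the other annotated start of Ndufa5 held 54.3%, so in complex I the order depends on the start chosen.

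In complex V, the ATP synthase, 11 of 16 genes did not pass the test, 4 were called higher and 1 lower, with a median of 0.06. The catalytic head has 5 members here. One of them, Atp5e, the epsilon subunit, was called higher at 0.20 and 0.33 (mean 0.27 ± 0.09, limma adjusted p = 0.00807). Atp5b, the catalytic beta subunit, was at 0.25 and -0.04 by its brightest probe and did not pass the test (mean 0.10 ± 0.20, limma adjusted p = 0.285). Its 2 dimmer probes gave -0.36 and -0.43 and were both called lower, so probes of Atp5b differed by 0.53. Atp5a1, the alpha subunit, was at 0.23 and -0.13 by its brighter probe and did not pass the test (mean 0.05 ± 0.25, limma adjusted p = 0.661). Its dimmer probe gave -0.14 and was not called. The other head subunits named gamma and delta, Atp5c1 and Atp5d, were both at 0.04.

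Of the membrane part, Atp5k, the e subunit at the dimer interface, was at 0.25 and 0.40 (mean 0.33 ± 0.11, limma adjusted p = 0.0038). The c subunit, of which a ring turns in the membrane, is made from 3 genes that encode the same mature protein with different targeting sequences. Atp5g1 was called higher at 0.17 on both arrays (limma adjusted p = 0.0293), Atp5g3 was at 0.05 and 0.23 without passing, and Atp5g2 was at -0.04 and 0.04. Of the 3, Atp5g2 thus lay closest to 0. In the peripheral stalk, which holds the head still, Atp5f1, the b subunit, was the only gene of complex V called lower, at -0.15 and -0.18 (mean -0.16 ± 0.03, limma adjusted p = 0.0323). Its other probes gave -0.26, called lower, and -0.07, not called. Atp5s, an assembly protein, was at 0.34 and 0.32 (mean 0.33 ± 0.01, limma adjusted p = 0.00201). The other, dimmer probe of Atp5s gave 0.14 and was not called. A dim second probe of Atp5j2, the f subunit, gave 0.82 and was called higher, against 0.07 and no call for the bright probe.

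Probes of one gene give a measure of how far a value depends on where the transcript is probed. Of 25 members with several tested probes, 20 had all of them within 0.25 of each other. The exceptions were Atp5j2, Uqcrq, Atp5b, Ndufab1 and Sdha. By the rule used for every gene, the brightest probe stands for these 5 too, which does not show that its value is the right one. Ndufa1 showed the closest match, with probes 0.00758 apart. Of the members, 11 have a pseudogene of their name in RefSeq: Atp5c1, Atp5f1, Atp5k, Atp5l, Cox5b, Cox7c, Cycs, Ndufa12, Ndufab1, Ndufs5 and Uqcrh. For these, transcripts of a near-identical copy could add to a probe's signal.

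**Figure D4:**
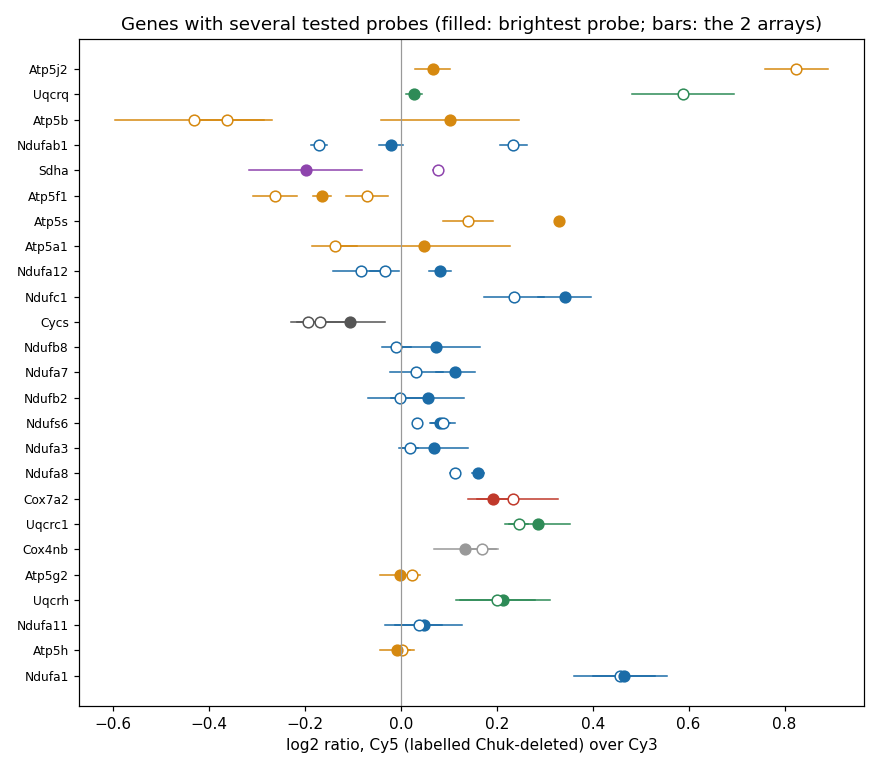
Each row is one of the 25 member genes with several tested probes, ordered by the distance between them, and the horizontal axis is the log2 ratio of Cy5 over Cy3. Circles are probe means, filled for the brightest probe that stands for the gene, and bars join the 2 arrays. Atp5j2, Uqcrq, Atp5b, Ndufab1 and Sdha at the top have probes more than 0.25 apart, and the other 20 lie closer.

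Genes outside the named set that build, feed or regulate the chain were followed in lists. All counts by list stand beside 33.0% called higher and 28.3% called lower of all genes tested, and no list was tested as a set. Of 34 tested assembly factors 13 were called higher and 5 lower, with a median of 0.05. Ttc19, which acts on complex III, was at 0.72 and 0.80 (mean 0.76 ± 0.06, limma adjusted p = 0.000111), and Timmdc1, a complex I factor, had a mean of 0.55. At the other end were Acad9, which works with Ndufaf1 in complex I assembly, at -0.48, and Cox11, which delivers copper to complex IV, at -0.27. Median centring turned Acad9 and Cox11 upward, while spike-in centring turned Ttc19 and Timmdc1 downward.

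Among regulators of mitochondrial genes, 5 of 18 were called higher and 4 lower. Ppargc1b, a coactivator of respiratory genes, had the largest change of any gene on these lists, at 1.18 and 1.33 (mean 1.25 ± 0.11, limma adjusted p = 3.92e-05), 2.39-fold higher, and it stayed above 0 under every centring. Tfam, which packages mitochondrial DNA, was called higher at 0.43, while Tefm, a mitochondrial transcription factor, and Gabpa, the ETS factor whose motif was searched above, were called lower at -0.39 and -0.24. Tfam turned under spike-in centring, and Tefm and Gabpa under median centring.

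Of 21 genes of the citric acid cycle and pyruvate dehydrogenase, 4 were called higher and 7 lower, with a median of -0.06. The 2 kinases named here that switch pyruvate dehydrogenase off went apart, Pdk1 at 0.55 and Pdk4 at -0.70, with the cycle enzyme Mdh2 at 0.34 and the dehydrogenase subunit Pdhb at -0.30. Of 11 carriers of the inner membrane and its uncouplers, 2 were called higher and 6 lower, with a median of -0.16. Slc25a4, an exchanger of ADP and ATP, was at 0.45 and the exchanger Slc25a12 at 0.21, while the uncoupling proteins Ucp1 and Ucp2 were at -0.85 and -0.55. Pdk4, Ucp1 and Ucp2 stayed below 0 under every centring, Pdhb turned under median centring, and Pdk1, Mdh2, Slc25a4 and Slc25a12 turned under spike-in centring.

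Mitochondrial ribosomal proteins showed no common direction, with 16 of 78 called higher and 13 lower and a median of -0.02. Mrps12 was lowest at -0.55 and Mrpl45 was at -0.35, while Mrps24 and Mrps16 were highest at 0.37 and 0.34. Of 23 genes for protein import, 1 was called higher (Tomm7, 0.20) and 7 lower, with the receptor Tomm20 at -0.41 and the channel Tomm40 at -0.40. The share called lower was thus close to the 28.3% of all genes, while the share called higher was below the 33.0% of all genes. Of 11 genes for coenzyme Q and electron transfer, 2 were called higher (Pdss1 at 0.48 and Coq5 at 0.40) and 1 lower (Coq6, -0.23). Of 4 tested subunits and partners of the complexes with other names, the inhibitor Atpif1 was called higher at 0.19 and 0 were called lower. The genes named here as lower turned upward under median centring on all probes, and those named as higher turned downward under spike-in centring.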

How the data were processed

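The 2 arrays form 1 group of 2 replicates. Per the file headers, the deposited scanner files come from version 9.1.3.1 of Agilent Feature Extraction. They give the intensity of each spot as mean pixel brightness with a local background median, neither of them corrected. The deposited files also hold processed intensities, which per the file headers were background subtracted and dye normalised, and the software's log10 ratio of Cy5 over Cy3, with a p-value for it from the software's error model, which was not used. The deposited value table of the series equalled that log10 ratio to within 0.005 in every spot. Flags of spots not above background, saturated or outlying are other deposited columns.

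Background was corrected with limma 3.58.1 in R 4.3.3 (normexp, offset 50), and data.table (version 1.17.8) handled the tables. Then log2 ratios were normalised by loess within each array, control spots at weight 0. Outlier spots (51 and 18) were left out. Probes had to be well above background on each array in Cy3, Cy5 or both, which kept 23540 of 41174 gene probes. limma's lmFit and eBayes (1 residual and 5.14 prior degrees of freedom) gave two-sided tests, adjusted by Benjamini-Hochberg over these probes. Where a gene had several tested probes, the brightest stood for it. The code was tested on simulated data. Names came from the files and RefSeq (GRCm38.p6).

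Members and gene lists were chosen with earlier results of these data known. Genes with values were named by rule: up to 5 called genes in each direction per complex, all of complex II, Cycs, isoform families, genes with opposed probes, and up to 2 genes in each direction per pathway list. For 1 gene under this rule, values are not reported here. Ndufs1, Ndufs3, Ndufs5, Ndufv1, Uqcrc2, Uqcrq, Uqcrb, Cox6c, Atp5a1, Atp5b, Atp5c1, Atp5d, Atp5j2 and Cyc1 were added after their values were seen. Brown adipocyte markers (1 higher and 2 lower of 3 tested) and endothelial markers (1 and 1 of 2) were counted too. Other background corrections, centrings, filters and memberships were alternatives.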

Additional observations from a re-analysis of the deposited data

How the results depend on the processing

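Direction depended on the centring of the arrays. Centring each array on the median of all gene probes, without loess, gave 77 members called higher and 0 lower by limma, with medians (log2 ratio) of 0.85 over all members, 0.85 in complex I, 0.62 in complex II, 0.89 in complex III, 0.88 in complex IV and 0.87 in complex V. The counts higher were 36, 4, 7, 12 and 16 in complexes I to V, and 0 were lower in each. Of genes called lower, these mean log2 ratios turned upward under it: Atp5f1 0.62, Cox5a 0.57, Cox7a2l 0.52, Ndufa12l 0.53, Ndufa6 0.42, Ndufaf1 0.21, Ndufs8 0.24, Sdha 0.42, Uqcrfs1 0.50, Acad9 0.10, Cox11 0.38, Pdhb 0.37, Mrps12 0.12, Mrpl45 0.37, Tomm20 0.37, Tomm40 0.16, Coq6 0.24, Tefm 0.027 and Gabpa 0.34. Lowering the loess ratios by the spike-in mean gave 0 members called higher and 79 lower (37, 4, 7, 13 and 16 in complexes I to V), with medians of -0.70 over all members, -0.68 in complex I, -0.85 in complex II, -0.70 in complex III, -0.65 in complex IV and -0.71 in complex V. Of genes called higher, these turned downward under it: Atp5e -0.50, Atp5g1 -0.60, Atp5k -0.43, Atp5s -0.43, Cox5b -0.51, Cox6a1 -0.15, Cox6b1 -0.57, Cox6b2 -0.15, Cox7a2 -0.57, Cox7b -0.47, Cox8a -0.41, Ndufa1 -0.30, Ndufa5 -0.27, Ndufb9 -0.35, Ndufc1 -0.42, Ndufs7 -0.37, Uqcr -0.57, Uqcrc1 -0.48, Uqcrh -0.55, Ttc19 -0.0050, Timmdc1 -0.22, Atpif1 -0.58, Pdk1 -0.22, Mdh2 -0.43, Mrps24 -0.39, Mrps16 -0.43, Tomm7 -0.57, Slc25a4 -0.32, Slc25a12 -0.55, Pdss1 -0.28, Coq5 -0.36 and Tfam -0.34. Centring on the median of tested probes, without loess, gave 63 members higher and 5 lower, and a median of 0.38. By complex it gave 30 higher and 2 lower in complex I (median 0.38), 1 and 0 in complex II (0.15), 5 and 0 in complex III (0.42) and 15 and 0 in complex V (0.40), with a median of 0.41 in complex IV. Here the genes that turned upward were Atp5f1 0.16, Cox5a 0.10, Cox7a2l 0.051, Ndufa12l 0.057 and Uqcrfs1 0.034. The share of all genes called higher went from 33.0% to 74.7%, 1.98% and 38.6% under these settings, and the share called lower from 28.3% to 7.25%, 91.0% and 28.3%.

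The other choices moved counts and seldom directions. With the software's log ratio 14 members were called higher and 5 lower, with 7 and 2 in complex I, 0 lower in complex II, 1 and 0 in complex III, 4 higher in complex IV and 2 and 0 in complex V (median 0.038). With subtracted background 18 were called higher and 8 lower, with 9 higher in complex I, 1 higher in complex III and 0 lower in complexes II and V. Testing all gene probes left 0 lower in complexes II and V and took the median of complex IV, which then held the dim isoforms, to -0.0015. Keeping outlier spots left 0 lower in complex II. With each gene as the mean of its probes, complex II had 0 lower (median -0.0080), complex III a median of 0.20 and complex V 2 lower (median 0.039). Counting probes gave 6 higher in complex III (median 0.20), 4 lower in complex V (median 0.038) and a median of -0.056 in complex II. Membership by current symbol, under which Atp5md, Atp5mpl, Ndufaf3 to Ndufaf7, Ndufv3 and Uqcr10 join and Atp5s and Cox4nb leave, gave a median of 0.041 in complex V.

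With either array left out there is no test, and medians ran from 0.05 to 0.10 over all members, 0.06 to 0.11 in complex I, -0.093 to -0.064 in complex II, 0.01 to 0.11 in complex III, 0.04 to 0.18 in complex IV and 0.05 to 0.07 in complex V. No paired analysis was possible because the arrays form 1 group of 2 replicates. A slide block was not run, since both arrays came from 1 slide and 1 scan. Changes of single genes as small as most of these rest on 2 arrays of 1 dye orientation, and dim isoforms are limited by their signal over background.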

Other observations

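Several genes of the same families carried older symbols in the files and so were not among the members. Under current RefSeq symbols 9 tested genes would join. Of the complex I assembly factors among them, Ndufaf4 was at 0.30 on both arrays (mean 0.30 ± 0.00139, SD, n = 2, limma adjusted p = 0.00309) and Ndufaf6 was at 0.27 and 0.43 (mean 0.35 ± 0.11, limma adjusted p = 0.00323), both called higher. Ndufaf7 was called higher at 0.16, while Ndufaf3 (0.02) and Ndufaf5 (0.08) did not pass the test. This differs in sign from Ndufaf1 and Ndufa12l (now Ndufaf2), both called lower, so the complex I assembly factors measured here had no common direction. The difference between the 2 sets was not tested. Ndufv3, an accessory subunit of the electron input module, was called higher at 0.23 (limma adjusted p = 0.00874). Uqcr10 of complex III (0.09) and Atp5md (-0.06) and Atp5mpl (-0.09) of complex V did not pass the test. As with the members, these are directions under loess centring, and these genes were not followed one by one under the other centrings.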
